A study of Mus musculus with 24 samples.

Results

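The proteasome subunits examined here are the 42 mouse genes whose symbol is Psma, Psmb, Psmc, Psmd or Psme followed by a number, out of 18192 genes with a probe set of their own on the arrays. They are represented by 88 probe sets, and the probe set with the highest mean log2 signal over the 24 arrays was kept for each gene. The kept probe sets of 40 of the 42 genes were among the 11046 genes bright enough to be tested. Psma8, the testis alpha subunit, had a mean signal of 11.7, and Psmb11, the thymus beta subunit, had a mean signal of 28.5, and neither passed the brightness filter. Psme2 shares its probe set with Psme2b and was therefore not a member.

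The study used immortalized mouse erythroblasts, red blood cell precursors grown in serum-free medium with erythropoietin, stem cell factor and dexamethasone, to ask how a shortage of a ribosomal protein, the defect behind Diamond-Blackfan anemia, alters which mRNAs are on polyribosomes. The groups were cells given a lentiviral shRNA against Rps19, cells given one against Rpl11, cells given a control construct (labelled ev) and untransduced cells, each with 3 sucrose gradients that the labels call biological replicates. Cells were treated with cycloheximide, which holds ribosomes on mRNA, and frozen, in the 3 groups given virus 3 days after its delivery. The description of Rps19 shRNA gradient 3 alone holds the word puro, whose meaning is not given. Each gradient was divided into a polysomal pool and a subpolysomal pool of all other fractions, and each pool was hybridised to 1 Affymetrix array, which gives 24 arrays. All groups share the immortalized line and its growth factors, and the labels give neither the number of hairpins per gene nor the content of the control construct. Whether the replicates were separate cultures is not stated beyond the word biological, so the p-values measure the spread between these gradients.

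The proteasome degrades proteins tagged with ubiquitin. Its barrel-shaped 20S core is built of alpha subunits, which form the gate, and beta subunits, some of which cut peptide bonds, and the 19S cap is made of a base, whose ring of ATPases unfolds the substrate and threads it into the core, and a lid, which removes the ubiquitin chain. Immature red cells dismantle much of their protein content during maturation and use this system to do so.

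For each gradient the recruitment of an mRNA was taken as the log2 polysomal signal minus the log2 subpolysomal signal, and its level as the mean of both log2 signals. The level stands in for the amount of mRNA, because unfractionated RNA was not analysed here. Every array had been scaled to the same trimmed mean, so a shift of all mRNA between pools or between groups leaves no trace, and each difference below is relative to the other mRNAs. In these bulk samples a lower amount of RNA per cell and a lower number of cells of one kind cannot be told apart. A call means an adjusted p under 0.05 from limma, with Benjamini-Hochberg adjustment over the 11046 genes.

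The targeted genes followed the labels: the level of Rps19 fell by 1.53 on the log2 scale with its shRNA (limma adjusted p 0.00372), and that of Rpl11 fell by 2.66 with its shRNA (limma adjusted p 0.00111). The erythroid markers Gata1, Klf1, Epor, Tfrc, Alas2, Kit and Slc4a1 were bright, while Hba-a1 did not pass the filter. Among the markers of other lineages, the platelet genes Pf4 and Itga2b had mean signals of 3121 and 658.5. Marker signals were also summed on each array, and the ranges below span the 6 arrays of a group, both pools together. Because the pools are mixed, an overlap of these ranges cannot show that the groups were alike. The summed signal of the 4 platelet-lineage markers ran from 1947 to 4614 with Rps19 shRNA and from 2571 to 5005 with Rpl11 shRNA. With the control construct it ran from 2079 to 6608. The summed signal of the 8 erythroid markers ran from 28220 to 61820 with Rps19 shRNA and from 34680 to 70210 with Rpl11 shRNA, against 31990 to 90590 with the control construct. Single markers went different ways: with Rps19 shRNA the mean signals of Alas2 (10400) and Slc4a1 (2047) were below, and those of Kit (3813) and Epor (3469) above, the values with the control construct, which were 20740, 5675, 2553 and 2913. With Rpl11 shRNA all 4 were below them, at 14850, 2949, 1696 and 1516. Klf1 was also below with Rpl11 shRNA, at 10740 against 12580 with the control construct. Tfrc and Gata1 were above, at 11980 and 5513 with Rpl11 shRNA against 11030 and 5191 with the control construct. The part of these markers in the results was not tested. The arrays of the Rpl11 shRNA group stood apart in RNA quality: for Gapdh, the 3′ probe set minus the 5′ probe set, in log2 units, lay between -0.46 and 3.90 on its 6 arrays, against -0.42 to 0.42 on the other 18. Gradients 2 and 3 of that group had the higher values, from 1.23 to 3.90, and gradient 1 had 0.99 in the polysomal pool and -0.46 in the subpolysomal pool. The part of RNA quality in the results of the Rpl11 shRNA group was not tested, and values without gradients 2 and 3 are given beside the main ones.

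The levels of the proteasome mRNAs differed most in cells with Rpl11 shRNA. There 14 of the 40 tested members were higher than with the control construct and 0 were lower (limma), while 8.7% of all tested genes were higher and 11.4% were lower, 20.1% together. The rises lay between 1.39-fold and 2.85-fold. Over the 40 members the median difference was 0.32 on the log2 scale, and over all genes it was -0.08. The members were thus 0.40 above all genes, and 0.30 above them with quantile normalization, under which 14 members were called and 17.7% of all genes. The members were bright: with the control construct their median level was 12.42, against 9.36 over all genes (means over gradients). With the dimmest 75% of probe sets removed, 15 members, all higher, and 28.9% of all genes were called. The Rpl11 shRNA arrays had lower median signals than the others, 46.8 to 49.0 against 58.9 to 68.9 in the polysomal pool. In the subpolysomal pool they had 65.7 to 86.7, against 97.2 to 124.6. The part of brightness was not tested. Centring every array on its median adds the same shift to every gene, which put the median of all genes at 0.32 and that of the members at 0.72. Under that scaling 30 members were called, all higher, and 33.2% of all genes. The groups did not overlap for 19 members that were higher and 1 that was lower, against 15.9% and 20.5% of all genes. Each of the 14 called members was above the mean of the control construct in each of the 3 Rpl11 shRNA gradients. The 14 were picked by a test on these same gradients, so this adds no support to the calls.

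**Figure D1:**
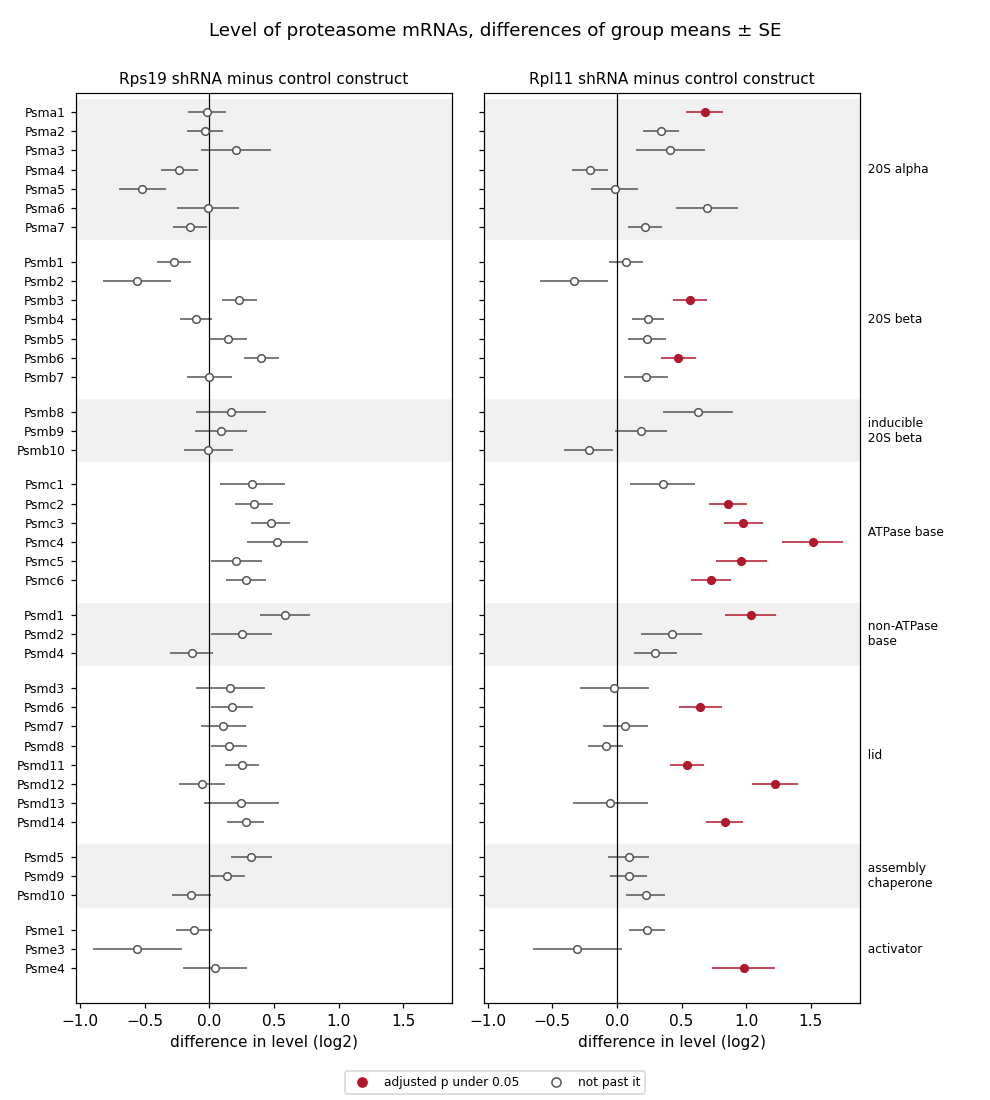
Difference in level (log2, difference of means ± limma SE, 3 gradients per group) of the 40 tested proteasome members, arranged by subunit class, for Rps19 shRNA minus control construct (left) and Rpl11 shRNA minus control construct (right). Filled points passed the threshold, and all 14 of them lie to the right of 0 in the right panel, with 5 among the 6 ATPases.

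The ATPases of the base, which drive unfolding, made up the class with the most calls: 5 of 6 were higher with Rpl11 shRNA, and the class median was 0.91. Psmc4 had levels of 11.81, 12.31 and 12.02 with Rps19 shRNA and 13.03, 13.15 and 12.93 with Rpl11 shRNA, against 11.32, 11.69 and 11.56 with the control construct. Untransduced cells had 11.10, 11.26 and 12.07. All 3 Rpl11 shRNA gradients lay above every gradient of the other groups. The difference from the control construct was 1.51 ± 0.24 (SE, n = 3 gradients per group), which is 2.85-fold (limma adjusted p 0.00326). In linear units the Psmc4 signals of the Rpl11 shRNA group were 8177, 9055 and 7023 in the polysomal pool, against 2215, 3071 and 2970 with the control construct.

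Psmc3 had levels of 12.32, 12.06 and 12.41 with Rps19 shRNA and 12.98, 12.78 and 12.54 with Rpl11 shRNA, against 11.91, 11.68 and 11.77 with the control construct. The rise with Rpl11 shRNA was 0.98 ± 0.15 (SE; limma adjusted p 0.00326). Neither shRNA group overlapped the control construct for this gene. Psmc5 rose by 0.96 ± 0.20 (SE; limma adjusted p 0.00924), with 11.96, 11.98 and 11.63 in the Rpl11 shRNA gradients, against 10.67, 10.86 and 11.17 with the control construct. Psmc2 rose by 0.86 (limma adjusted p 0.00416) and Psmc6 by 0.73 (limma adjusted p 0.00981), and for both genes every Rpl11 shRNA gradient was above every gradient of the control construct. A dim probe set of Psmc2, with a mean signal of 131, had a difference of -1.15, and its other bright probe set had 0.71. Psmc1 was the ATPase not called: its difference was 0.35 (limma adjusted p 0.331), with 10.42, 10.24 and 10.52 in the Rpl11 shRNA gradients, against 10.50, 9.88 and 9.74 with the control construct, where gradient 1 overlapped the Rpl11 shRNA group.

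**Figure D2:**
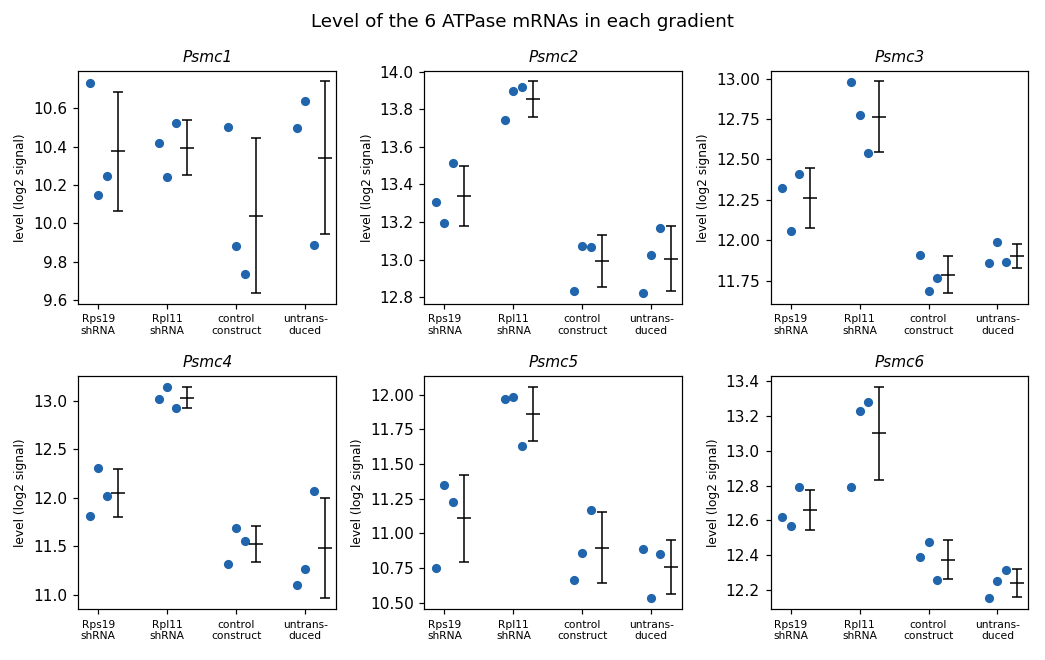
Level (log2 signal, vertical axis, a scale of its own in each panel) of the 6 ATPase mRNAs in every gradient of Rps19 shRNA, Rpl11 shRNA, control construct and untransduced cells, with the group mean and SD beside the points. The Rpl11 shRNA points lie above all control construct points for 5 of the 6 genes, and Psmc1 is the gene where they overlap.

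The other base subunits and the lid moved the same way in part. Among the 3 non-ATPase base subunits, Psmd1, a scaffold of the base, was called, and among the 8 lid subunits 4 were called, with a lid median of 0.30. Psmd12, a structural lid subunit, had levels of 11.06, 11.15 and 11.26 with Rps19 shRNA and 12.23, 12.50 and 12.58 with Rpl11 shRNA, against 11.00, 11.33 and 11.30 with the control construct. The Rpl11 shRNA gradients were the 3 highest and those of the Rps19 shRNA and control construct overlapped. Its rise with Rpl11 shRNA was 1.22 ± 0.18 (SE), 2.34-fold (limma adjusted p 0.00234). Psmd1 had levels of 11.07, 11.47 and 11.61 with Rps19 shRNA and 11.59, 11.69 and 12.20 with Rpl11 shRNA, against 10.93, 10.78 and 10.66 with the control construct. It rose by 1.03 ± 0.20 with Rpl11 shRNA (SE; limma adjusted p 0.00655), and neither shRNA group overlapped the control construct. Psmd14, the lid's deubiquitinase, rose by 0.83 (limma adjusted p 0.00446), and its gradients read 13.10, 13.40 and 13.16 with Rpl11 shRNA, against 12.34, 12.48 and 12.34 with the control construct. The lid subunits Psmd6 and Psmd11 rose by 0.65 (limma adjusted p 0.0204) and 0.54 (limma adjusted p 0.0165). A dim probe set of Psmd11, with a mean signal of 148, had a difference of -0.43, and its 3 brighter additional probe sets had differences above 0. Over the 19 members with further probe sets past the filter, 21 of the 29 further probe sets had the sign of the kept one for level with Rpl11 shRNA, and 22 of 29 did with Rps19 shRNA.

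To show the DNA in front of the genes with the largest level differences, the promoters of the 3 members with the highest rise with Rpl11 shRNA are printed below, from RefSeq on build GRCm38.p6, each from 250 bases before to 50 bases after the gene start and read 5′ to 3′ on the gene's strand. Capitals mark matches to any of 4 motifs searched on both strands: TGACNNNGC (the antioxidant response element), CACGTG (the E-box), the NRF-1 palindrome and CCAAT (the CCAAT box). The Psmc4 promoter lies at chr7:28050043-28050342 on the minus strand, that of Psmd12 at chr11:107479278-107479577 on the plus strand and that of Psmd1 at chr1:86064369-86064668 on the plus strand.
Psmc4: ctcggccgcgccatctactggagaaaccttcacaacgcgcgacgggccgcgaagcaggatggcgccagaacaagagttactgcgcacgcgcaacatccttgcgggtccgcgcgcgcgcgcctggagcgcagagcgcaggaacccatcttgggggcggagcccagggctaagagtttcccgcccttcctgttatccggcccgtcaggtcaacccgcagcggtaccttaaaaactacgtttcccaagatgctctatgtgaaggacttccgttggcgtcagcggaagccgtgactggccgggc
Psmd12: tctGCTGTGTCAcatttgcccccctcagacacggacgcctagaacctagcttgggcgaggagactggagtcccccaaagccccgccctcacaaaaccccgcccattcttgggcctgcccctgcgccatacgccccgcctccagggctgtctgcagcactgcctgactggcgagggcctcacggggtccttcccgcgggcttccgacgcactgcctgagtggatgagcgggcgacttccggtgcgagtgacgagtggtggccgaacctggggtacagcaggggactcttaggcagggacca
Psmd1: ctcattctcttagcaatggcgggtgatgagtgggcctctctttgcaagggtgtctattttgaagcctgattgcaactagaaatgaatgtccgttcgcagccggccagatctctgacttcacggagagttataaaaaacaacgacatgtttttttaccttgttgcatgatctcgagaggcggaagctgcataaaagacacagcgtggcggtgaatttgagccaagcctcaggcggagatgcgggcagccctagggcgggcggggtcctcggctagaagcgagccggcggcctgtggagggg
The Psmd12 promoter holds 1 match, to TGACNNNGC as its reverse complement, 247 bases before the gene start, and those of Psmc4 and Psmd1 hold none of the 4 motifs in this window.

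Promoter entries were found for 35 of the 42 members. The motifs were chosen after the level results were known, so their counts are descriptions. TGACNNNGC was in 6 of the 35 members (17.1%) and in 14.0% of the 27025 genes with an entry. CACGTG was in 4 members (11.4%) and 8.09% of genes, the NRF-1 palindrome in 1 member (2.86%) and 1.07% of genes, and CCAAT in 14 members (40.0%) and 41.1% of genes. Of the 13 members with an entry that were higher with Rpl11 shRNA, 4 held TGACNNNGC (Psmb6, Psmc6, Psmd12 and Psme4), 4 held CCAAT (Psma1, Psmb3, Psmc2 and Psmd14) and 0 held either of the other motifs. Of the 21 tested members with an entry that were not called, 2 held TGACNNNGC, 9 held CCAAT, 4 held CACGTG and 1 held the NRF-1 palindrome.

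The 20S core, with 14 constitutive subunits, had 3 calls and a median of 0.23 with Rpl11 shRNA. Psma1, an alpha subunit, rose by 0.68 ± 0.15 (SE; limma adjusted p 0.0108), with 13.16, 13.53 and 13.32 in the Rpl11 shRNA gradients, against 12.83, 12.58 and 12.57 with the control construct. A dim probe set of Psma1, with a mean signal of 122, had a difference of -0.46. Psmb3, a structural beta subunit, rose by 0.56 (limma adjusted p 0.0162), and Psmb6, which carries the caspase-like site, rose by 0.47 (limma adjusted p 0.0321). Their groups did not overlap. Psma6 had a difference of 0.70 (limma adjusted p 0.0612), and its Rpl11 shRNA gradients read 13.32, 13.76 and 13.83, against 13.20, 12.80 and 12.82 with the control construct. The interferon-inducible beta subunits had 0 calls among 3 (limma; the gene with the smallest p was Psmb8, with a difference of 0.63 and an adjusted p of 0.117). The base assembly chaperones had 0 among 3 (limma; Psmd10, with 0.22 and an adjusted p of 0.311). Of the 3 activators, which cap the core in place of the base and lid, Psme4 was called, with a rise of 0.98 ± 0.25 (SE; limma adjusted p 0.0193). The Psme4 gradients read 12.14, 12.33 and 12.41 with Rpl11 shRNA, against 11.04, 11.53 and 11.37 with the control construct.

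All 14 calls kept their direction in the 17 alternatives run for them, and Psmc3, Psmc4 and Psmd12 passed the threshold in each of these. Sizes were less stable: the smallest difference was 0.11 for Psma1 and 0.14 for Psmc2. These 2 genes passed in 14 and 15 of the 17 alternatives. With gradients 2 and 3 of the Rpl11 shRNA group left out, 4 members were called, all higher: Psmc3 by 1.19, Psmc4 by 1.50, Psmd12 by 1.02 and Psmd2, a scaffold of the base, by 1.06, while 6.48% of all genes were called. That fit has 1 gradient in the Rpl11 shRNA group, assumed to vary like the other groups. In that fit 35 of the 40 members were above 0, with a median of 0.39 against -0.06 over all genes. The count was 9 without control construct gradient 3, where 9.77% of all genes were called, and it lay between 9 and 16 when any 1 gradient was left out.

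With Rps19 shRNA, by contrast in count, 0 members were called in level against the control construct, where 0.806% of all genes were called (limma; 6 members and 1682 genes had an unadjusted p under 0.05). Both shRNA groups were set against the same 3 control gradients. The member median was 0.14, and over all genes it was 0.01. That median was 0.08 without control construct gradient 2 or 3 or without Rps19 shRNA gradient 1, and 0.03 against untransduced cells. With the replicate number as a block, 0 members and 0.154% of all genes were called (limma). All 6 ATPases had a difference above 0 with Rps19 shRNA, with a median of 0.34, whereas 4 of the 14 constitutive core subunits did, with a median of -0.03. The ATPase with the smallest p, Psmc3, had a difference of 0.48 ± 0.15 (SE; limma adjusted p 0.174), and Psmd1 had 0.59 ± 0.20 (SE; limma adjusted p 0.188). Psma5, an alpha subunit, had -0.52 (limma adjusted p 0.209), and its groups did not overlap. The groups did not overlap for 11 members that were higher and 4 that were lower, against 14.3% and 12.1% of all genes, so the count of lower members was close to the background. The other members with the smallest p of their class were Psmb6 (0.40, limma adjusted p 0.194), Psmd11 (0.26, limma adjusted p 0.389), the chaperone Psmd5 (0.32, limma adjusted p 0.360), Psmb8 (0.17, limma adjusted p 0.830) and Psme3 (-0.56, limma adjusted p 0.481).

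The difference between the shRNA groups was tested directly. With Rps19 shRNA, 8 members were lower than with Rpl11 shRNA and 0 were higher (limma), while 8.57% of all genes were lower and 11.8% higher, 20.4% together, and the member median was -0.34 against 0.09 over all genes. The 8 were Psmd12, Psma1, Psmc4, Psmd14, Psme4, Psmc5, Psmc2 and Psmc3. Psmd12 differed by -1.28 ± 0.18 (SE; limma adjusted p 0.00178), Psma1 by -0.69 (limma adjusted p 0.00905) and Psmc4 by -0.99 (limma adjusted p 0.0158). The remaining 5 differed by between -0.93 and -0.50. Psmc2 had the opposite sign, 0.18, when all its probe sets were averaged. With arrays centred on the median 24 members were lower and 29.2% of all genes were called, and the member median was -0.68. The groups did not overlap for 19 members that were lower and 0 that were higher, against 15.7% and 21.7% of all genes. The count of calls was 2 without Rpl11 shRNA gradient 2 (10.7% of all genes), 3 without Rps19 shRNA gradient 1 (12.1%) and 5 without Rps19 shRNA gradient 2 (11.0%). The first 2 of these counts are smaller shares of the 40 members than of all genes, and the third is close to the share of all genes. It was 19 without Rpl11 shRNA gradient 1, of which 3 were higher (31.6% of all genes). Between the control construct and untransduced cells 0 members were called in level, as for 0% of all genes (limma; 0 members had an unadjusted p under 0.05). There the groups did not overlap for 2 members that were higher and 0 that were lower, against 3.3% and 4.17% of all genes.

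Recruitment of proteasome mRNAs to polyribosomes was above that of the control construct for most members with either shRNA, and few single genes passed the test. With Rps19 shRNA 33 of 40 members had a difference above 0, as did 5644 of the 11046 genes. The member median was 0.29 against 0.01 over all genes. There 1 member was called, higher, while 0.29% of all genes were called higher and 0.579% lower (limma). With Rpl11 shRNA 34 of 40 were above 0, as were 5745 of the 11046 genes. The member median was 0.33 against 0.02 over all genes. There 5 members were called, all higher, while 2.11% of all genes were called higher and 3.52% lower, 5.63% together (limma). The same control gradients serve both comparisons. Between the control construct and untransduced cells, where 0 members were called (limma), 33 of the 40 were below 0. A count this far to one side thus also arose between the groups without either shRNA. The groups did not overlap for 19 members that were higher with Rps19 shRNA, where 12.7% of all genes did so, and for 18 with Rpl11 shRNA, where 12.9% of all genes did so. In neither comparison was a member lower without overlap, against 12.2% of all genes with Rps19 shRNA and 13.6% with Rpl11 shRNA.

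**Figure D3:**
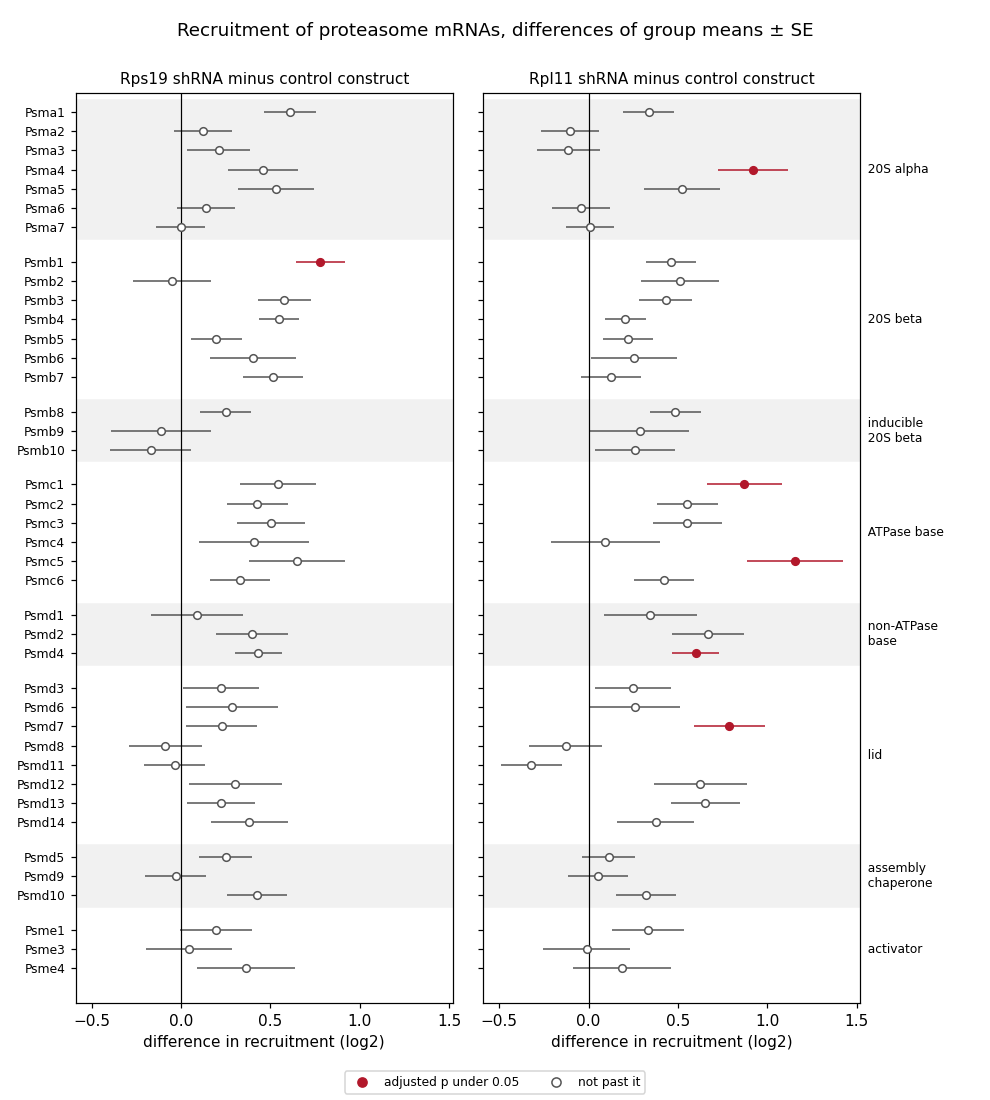
Difference in recruitment (log2, difference of means ± limma SE, 3 gradients per group) of the 40 tested members by subunit class, for Rps19 shRNA minus control construct (left) and Rpl11 shRNA minus control construct (right). Most points lie to the right of 0 in both panels, and the filled points, which passed the threshold, are 1 beta subunit on the left and 5 subunits of 4 classes on the right.

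Psmb1, a beta subunit with no cutting site of its own, was the member called with Rps19 shRNA. Its recruitment was -0.02, -0.16 and -0.18 with Rps19 shRNA and -0.28, -0.39 and -0.65 with Rpl11 shRNA, against -0.90, -0.85 and -0.95 with the control construct. Untransduced cells had -0.97, -1.15 and -0.93. Neither shRNA group overlapped the control construct or the untransduced cells. The difference with Rps19 shRNA was 0.78 ± 0.14 (SE), 1.72-fold (limma adjusted p 0.0419), and with Rpl11 shRNA it was 0.46 ± 0.14 (SE; limma adjusted p 0.0775). In linear signals, the polysomal pool read 11290, 10140 and 11010 with Rps19 shRNA, against 9949, 10420 and 9477 with the control construct. The subpolysomal pool read 11430, 11330 and 12510 with Rps19 shRNA, against 18570, 18780 and 18360 with the control construct, so the groups were farther apart in the subpolysomal pool. Its 2 dimmer probe sets past the filter, with mean signals of 362.5 and 271, had differences of 0.79 and 0.15 with Rps19 shRNA. The direction held in all 18 alternatives, and the call held in 6, with adjusted p from 0.00820 to 0.232. Without any 1 of the 6 gradients compared the call was lost.

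The beta subunits as a class had a median recruitment difference of 0.52 with Rps19 shRNA, and 6 of 7 were above 0. Psmb4, a structural beta subunit, had recruitment values of 0.20, 0.20 and 0.25 with Rps19 shRNA, against -0.37, -0.26 and -0.36 with the control construct, a difference of 0.55 (limma adjusted p 0.0572). Its groups did not overlap. The alpha subunit with the smallest p, Psma1, had 0.61 (limma adjusted p 0.0831), with 0.56, 0.43 and 0.52 in Rps19 shRNA gradients, against -0.22, -0.07 and -0.03 with the control construct. The inducible subunits had a median of -0.11 with Rps19 shRNA. All 6 ATPases were above 0, with a median of 0.47 and 0 calls (limma; 4 had an unadjusted p under 0.05, and the smallest adjusted p was 0.247, for Psmc3). In the other classes the members with the smallest p were Psmd4 (0.43, limma adjusted p 0.154), the chaperone Psmd10 (0.42, limma adjusted p 0.269), Psmd14 (0.38, limma adjusted p 0.443), Psmb8 (0.25, limma adjusted p 0.461) and Psme4 (0.36, limma adjusted p 0.596).

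**Figure D4:**
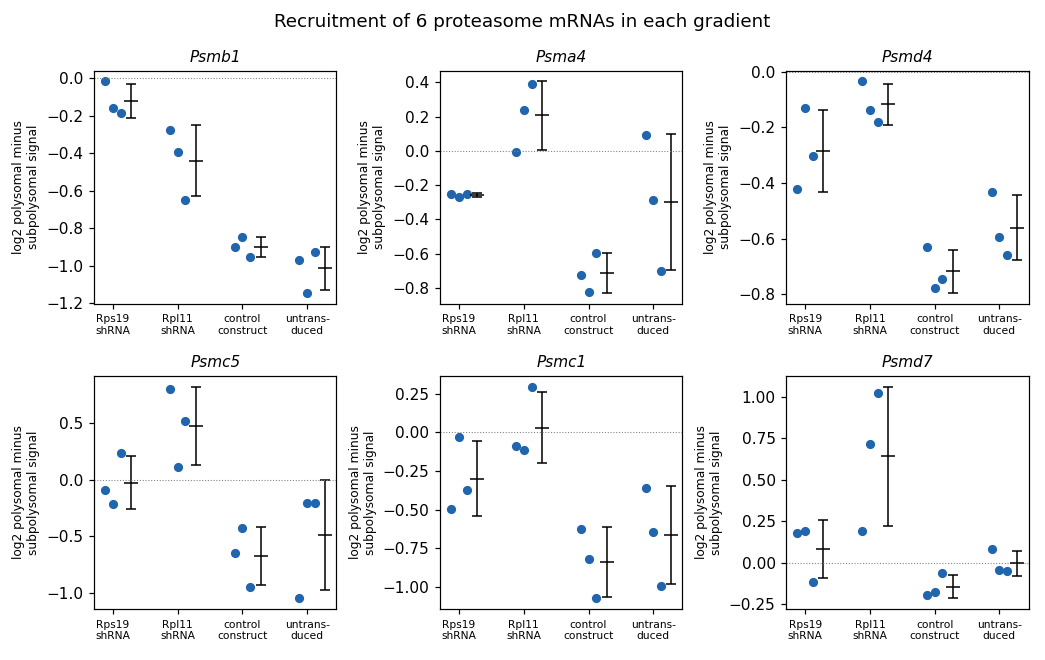
Recruitment (log2 polysomal minus subpolysomal signal) in every gradient of the members called with Rps19 shRNA (Psmb1) or Rpl11 shRNA (Psma4, Psmd4, Psmc5, Psmc1 and Psmd7), with the group mean and SD beside the points. For each gene the shRNA group in which it was called, and by which it was picked, lies above all control construct gradients.

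With Rpl11 shRNA the 5 called members came from the alpha ring, the base and the lid, and 4 of the 17 subunits of base and lid were called. Psma4, an alpha subunit, had recruitment values of -0.25, -0.27 and -0.25 with Rps19 shRNA and -0.01, 0.24 and 0.39 with Rpl11 shRNA, against -0.72, -0.83 and -0.59 with the control construct. The difference with Rpl11 shRNA was 0.92 ± 0.20 (SE), 1.89-fold (limma adjusted p 0.0259). Untransduced cells read 0.09, -0.29 and -0.70, a range that overlapped all 3 other groups. Psmd4, a ubiquitin receptor of the base, had -0.03, -0.14 and -0.18 with Rpl11 shRNA, against -0.63, -0.78 and -0.75 with the control construct. Its difference was 0.60 ± 0.13 (SE; limma adjusted p 0.0291). A second probe set of Psmd4 had a difference of 0.71. Over the members, 18 of the 29 further probe sets past the filter had the sign of the kept one for recruitment with Rpl11 shRNA, and 22 of 29 did with Rps19 shRNA. Psmd7, the lid subunit that pairs with Psmd14, had 0.19, 0.71 and 1.02 with Rpl11 shRNA, against -0.20, -0.18 and -0.06 with the control construct, and rose by 0.79 (limma adjusted p 0.0457). None of these groups overlapped between Rpl11 shRNA and the control construct.

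Among the ATPases, Psmc5 had recruitment values of 0.80, 0.12 and 0.52 with Rpl11 shRNA, against -0.65, -0.43 and -0.94 with the control construct. It differed by 1.16 ± 0.27 (SE), 2.23-fold (limma adjusted p 0.0363). Psmc1 had -0.09, -0.12 and 0.30 with Rpl11 shRNA, against -0.62, -0.82 and -1.08 with the control construct, and rose by 0.87 ± 0.21 with Rpl11 shRNA (SE; limma adjusted p 0.0418). The class median was 0.55. Of the classes without a call, the members with the smallest p were the inducible Psmb8 (0.49, limma adjusted p 0.0758), Psmb1 as given above, the chaperone Psmd10 (0.32, limma adjusted p 0.296) and the activator Psme1 (0.33, limma adjusted p 0.371). In each gradient, the median recruitment of the 6 ATPases was -0.16, 0.01 and -0.07 with Rps19 shRNA and 0.05, -0.10 and 0.13 with Rpl11 shRNA, against -0.64, -0.41 and -0.50 with the control construct. Untransduced cells had -0.12, -0.37 and -0.66, so that their gradient 1 lay inside the range of the shRNA groups. Psmc5 was also among the members called in level with Rpl11 shRNA, a measure taken from the same arrays.

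**Figure D5:**
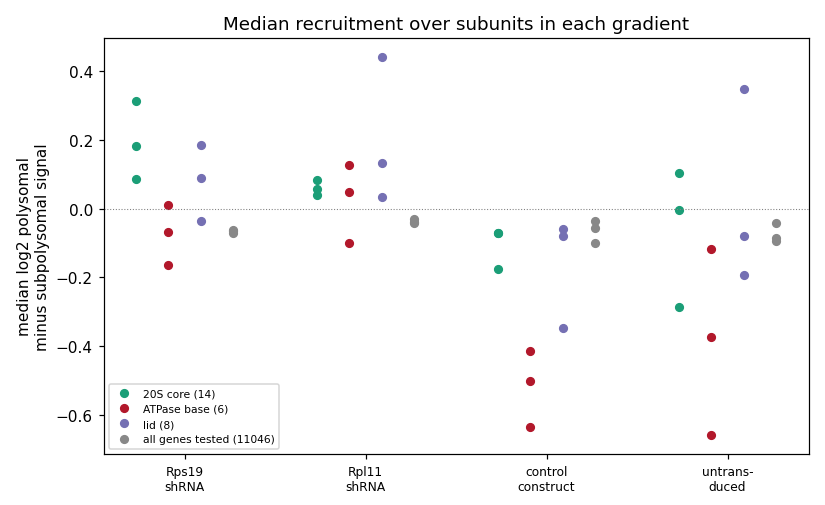
Median recruitment (log2 polysomal minus subpolysomal signal) in each of the 12 gradients over the 14 constitutive core subunits, the 6 ATPases, the 8 lid subunits and all 11046 genes tested, by group. The ATPase medians of the control construct lie between -0.64 and -0.41 and those of both shRNA groups between -0.16 and 0.13, with untransduced cells from -0.66 to -0.12.

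The calls with Rpl11 shRNA were lost in most alternatives: the directions held in all 18, and each call held in 5 to 7 of them. Without any 1 of the 3 control construct gradients, or without Rpl11 shRNA gradient 3, the count was 0, where 1.2% to 2.34% of all genes were called. Without Rpl11 shRNA gradient 1 or gradient 2 it was 2, where 4.63% and 5.41% of all genes were called, so these counts were close to the background. With Rpl11 shRNA gradients 2 and 3 left out, the median difference was 0.52, which rests on gradient 1 alone. The Gapdh 3′ minus 5′ value of gradient 1 was 0.99 in the polysomal pool and -0.46 in the subpolysomal pool. Those pools lay farther apart than the pools of gradient 2 (1.23 and 2.10) or gradient 3 (3.31 and 3.90). Leaving out gradients 2 and 3 thus does not remove a quality difference between the pools. With quantile normalization 12 members were called, all higher, and 5.2% of all genes, and the median was 0.53. Against the untransduced cells in place of the control construct, the member median difference was 0.17 for each shRNA, against 0.02 over all genes. There 30 members were above 0 with Rps19 shRNA and 28 with Rpl11 shRNA. Psmb1 was the 1 member called with each shRNA (limma). Of all genes 0.299% were called with Rps19 shRNA and 3.95% with Rpl11 shRNA, so the member share was below the background with Rpl11 shRNA. Psmb1 was then higher by 0.89 with Rps19 shRNA (limma adjusted p 0.0396) and by 0.58 with Rpl11 shRNA (limma adjusted p 0.0477).

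Direct comparison of Rps19 shRNA with Rpl11 shRNA gave 0 member calls in recruitment, where 0.552% of all genes were called (limma; 7 members and 1729 genes had an unadjusted p under 0.05). Psma4 had -0.46 ± 0.20 (SE; limma adjusted p 0.287), Psmd7 had -0.56 ± 0.20 (SE; limma adjusted p 0.207) and Psmb4 had 0.34 ± 0.11 (SE; limma adjusted p 0.186). The groups did not overlap for 5 members that were higher and 5 that were lower, against 11% and 10.1% of all genes, close to the background. The control construct had lower recruitment than untransduced cells for 33 of the 40 members and for 5511 of the 11046 genes. The member median was -0.12, which was -0.02 without untransduced gradient 1 and -0.24 without untransduced gradient 3. In that comparison 0 members were called, as for 0% of all genes (limma; 0 members had an unadjusted p under 0.05). There 0 members were higher and 2 were lower without overlap, against 4.97% and 4.92% of all genes. The median recruitment over the members in each gradient was 0.14, 0.15 and 0.03 with Rps19 shRNA, 0.21, 0.00 and 0.17 with Rpl11 shRNA and -0.21, -0.17 and -0.07 with the control construct, and 0.15, -0.05 and -0.21 in untransduced cells. The SD of recruitment among the 40 members was 0.29, 0.26 and 0.26 in the Rps19 shRNA gradients and 0.29, 0.35 and 0.29 in the Rpl11 shRNA gradients, against 0.39, 0.33 and 0.39 with the control construct. Untransduced cells had 0.41, 0.42 and 0.38. The members lay closer to each other in every Rps19 shRNA gradient than in any gradient without an shRNA, while Rpl11 shRNA gradient 2 overlapped the control construct. Over all genes the SD was 0.69, 0.75 and 0.73 with Rps19 shRNA and 0.74, 0.62 and 0.67 with Rpl11 shRNA. It was 0.77, 0.71 and 0.68 with the control construct and 0.86, 0.79 and 0.68 in untransduced cells. The SDs were not tested.

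In the untransduced cells themselves, the polysomal and subpolysomal pools were compared by limma with the gradient as a block. There 4 members were higher in the polysomal pool and 9 were lower, against 19.4% and 21.4% of all genes, 40.9% together, which is below the background for the first and close to it for the second. The balance turned with single gradients: 0 were higher and 10 lower without untransduced gradient 1, 1 and 5 without gradient 2, and 7 and 5 without gradient 3. Psmb1 was lower in the polysomal pool by 2.02-fold (difference -1.02, limma adjusted p 4.92e-05). The base subunits Psmd4 and Psmc1 had -0.56 (limma adjusted p 0.00104) and -0.67 (limma adjusted p 0.00543). Psmb3 and Psmb4 of the core, Psmc2 and Psmc6 of the ATPase ring, Psmd2 of the base and Psmd12 of the lid were the other members that were lower. Psmd11, a lid subunit, was higher by 0.48 (limma adjusted p 0.0101), and Psma7, Psmb10 and the chaperone Psmd9 were also higher. The sign of these differences depends on how the pools are scaled: with each array centred on its median, the median of all genes was 0.72 instead of -0.09, 30 members were called and all were higher, where 64.9% of all genes were called.

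Genes that act with the proteasome were read from 5 lists. In level with Rpl11 shRNA, 7 of their 40 tested genes rose and 2 fell, against 8.7% and 11.4% of all genes. Of the 12 assembly and regulation genes 1 rose and 1 fell, close to those shares. Akirin2, which brings proteasomes into the nucleus in human cells, had levels of 12.02 ± 0.13 with Rps19 shRNA and 12.22 ± 0.12 with Rpl11 shRNA, against 11.25 ± 0.09 with the control construct (SD, n = 3 each). It rose by 0.77 with Rps19 shRNA (limma adjusted p 0.0287) and by 0.96 with Rpl11 shRNA (limma adjusted p 0.00190). Nfe2l1, a transcription factor of proteasome genes, fell by 1.07 with Rpl11 shRNA to 8.21 ± 0.33, against 9.28 ± 0.23 with the control construct (SD, n = 3 each; limma adjusted p 0.00701). Of the 4 proteasome-bound factors tested, the deubiquitinase Usp14 rose by 0.69 with Rpl11 shRNA (limma adjusted p 0.0103).

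Of the 11 shuttle and Vcp genes, which carry ubiquitinated proteins to the proteasome, Ubqln2, Ufd1 and Ubqln1 rose in level with Rpl11 shRNA by 1.12, 1.00 and 0.49, while Ubqln4 fell by 0.47 (limma; highest adjusted p of the 4 was 0.0488). Of the 8 interferon response genes, the antigen-presentation genes Tapbp and Tap1 rose in level by 0.80 and 0.72 (limma adjusted p 0.0117 and 0.0363), and of the 5 ubiquitin and activation genes 0 were called (limma; 2 had an unadjusted p under 0.05). With Rps19 shRNA, Akirin2 and the Vcp partner Faf1, which rose by 0.96 (limma adjusted p 0.0301), were the genes of these lists called in level against the control construct. Compared with Rpl11 shRNA, 4 of the 40 list genes had higher levels with Rps19 shRNA and 6 had lower ones (limma). The shares of all genes were 11.8% and 8.57%. Between the pools of untransduced cells 7 were higher in the polysomal pool and 8 lower (limma), against 19.4% and 21.4% of all genes.

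In recruitment with Rpl11 shRNA, 2 of the 40 genes of the lists rose and 3 fell, against 2.11% and 3.52% of all genes, and 4 of the 5 lists had a median above 0. Sem1, a small lid subunit whose symbol lies outside the rule, fell by 0.77 to -0.42 ± 0.05, against 0.36 ± 0.09 with the control construct (SD, n = 3 each; limma adjusted p 0.0122). Psmg3, a chaperone of core assembly, fell by 0.62 (limma adjusted p 0.0414), and Pomp, which matures the core, fell by 0.51 (limma adjusted p 0.0432). Tap2, a peptide transporter, and Nsfl1c, a Vcp partner, rose by 0.81 (limma adjusted p 0.0145) and 0.76 (limma adjusted p 0.0427). With Rps19 shRNA 0 genes of the lists were called in recruitment against the control construct (limma; 7 had an unadjusted p under 0.05). Compared with Rpl11 shRNA, recruitment with Rps19 shRNA was higher by 0.88 for B2m, which pairs with antigen-presenting chains (limma adjusted p 0.0357), and lower for Cdc34, a ubiquitin-conjugating enzyme, with a difference of -1.01 (limma adjusted p 0.0373).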

How the data were processed

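The deposited table holds linear intensity signals of 45101 probe sets on 24 Affymetrix arrays, which the authors computed with MAS5, according to the submitters' processing notes (per the labels), with its version not given in the sources used here. A second deposited table gives the fraction of signal in the polysomal pool for each gradient, per the file headers, and it was used as an alternative. The trimmed mean (2% off each end) of every array was between 499.774 and 500. Signals were taken as log2(signal + 7.85), where the offset is 0.1 of the median signal. Precision is limited by the 12 gradients.

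Probe sets with 1 gene symbol (34958; 932 had several and 9211 none) were used, the dimmest 50% were removed and the brightest per gene was kept. Group effects were fitted over the 12 gradients with limma 3.58.1 in R 4.3.3 (lmFit, eBayes), and the pools were compared in untransduced cells only. Pool tests in the other groups were run once and left out, because the design did not include them. The fit was tested on simulated data. Python 3.11.15 with pandas 2.3.3 and matplotlib 3.10.9 made the summaries and plots.

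The members, gene lists and classes were chosen with earlier results of these data known. Named were all called members, the member with the smallest p in each class for each shRNA against the control construct, and members whose probe sets disagree in sign. Called genes of the lists were named for each shRNA against the control construct, and in recruitment between the shRNA groups. The naming rule set at most 6 such genes per comparison, and more are named in level with Rpl11 shRNA. Those called in level between the shRNA groups and in the pools are counted and not named. The rule also asked for the highest and lowest member by level and recruitment; these are not listed, since levels of different probe sets are not comparable. Same-numbered gradients of different groups correlated above 0.1 in 0 of 18 pairs for recruitment and 7 of 18 for level. All 3 pairs did so in level between Rps19 shRNA and the control construct (0.53, 0.29 and 0.21), where the blocked value is given beside the result, although gradients 2 and 3 also correlated across numbers (0.20 and 0.32). In no other comparison did every pair do so. Level also correlated across numbers between the control construct and untransduced cells. Control construct gradient 1 had 0.48 with untransduced gradient 2 and -0.66 with gradient 3, and control construct gradient 2 had 0.46 with untransduced gradient 3. A block on the replicate number does not model such links. Alternatives were another offset, scaling, filter, probe set rule and fit, and leaving out gradients.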

Additional observations from a re-analysis of the deposited data

How the results depend on the processing

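Over single members and alternatives, 438 values kept direction and call, 195 kept direction and lost the call, and 10 reversed. Each count below is of the 40 members, from limma, for recruitment with Rps19 shRNA (1 called) and Rpl11 shRNA (5 called), level with Rpl11 shRNA (14) and level with Rps19 against Rpl11 shRNA (8), and the pools of untransduced cells (13). Shares in parentheses are of all genes called in the same fit. With arrays centred on the median the counts were 0, 0, 30, 24 and 30 (0%, 1.49%, 33.2%, 29.2% and 64.9%). With quantile normalization recruitment gave 0 for Rps19 and 12 for Rpl11 shRNA (0.661% and 5.2%). With no filter on dim probe sets the counts were 0 and 0 for recruitment (0% and 0.522%), 3 for Rps19 against Rpl11 shRNA in level (7.86%) and 8 for the pools (24.8%). With the dimmest 75% removed they were 4 and 11 for recruitment (5.9% and 18.9%). In level they were then 15 with Rpl11 shRNA (28.9%) and 14 for Rps19 against Rpl11 shRNA (30.6%). With the mean of all probe sets, recruitment with Rps19 shRNA gave 0 (0.19%). Fits on the compared groups alone gave 0 and 0 for recruitment (0% each), 8 and 2 for level (5.51% and 8.38%) and 4 for the pools (30.3%). In recruitment no same-numbered gradients of different groups correlated above 0.1, which cannot show that they were unpaired. There the replicate block gave 0 and 0 (0% and 3.02%). In level it gave 14 and 8 (21.2% and 21.3%) and 0 for Rps19 shRNA against the control construct, the comparison in which the numbers may pair, and the pools without the block gave 5 (25.9%). Leaving out 1 gradient gave 0 to 0 for recruitment with Rps19 shRNA (0% to 0.0272%), 0 to 2 with Rpl11 shRNA (1.2% to 5.41%), 9 to 16 for level with Rpl11 shRNA (9.77% to 32.5%), 2 to 19 for Rps19 against Rpl11 shRNA (10.7% to 31.6%), and 6 to 12 for the pools (27.6% to 35.3%), with 6 without untransduced gradient 2. Of the alternatives chosen after seeing the data, untransduced cells in place of the control construct gave 1 for recruitment with Rpl11 shRNA (3.95%), and leaving out Rpl11 shRNA gradients 2 and 3 gave 0 for that recruitment (0%), 4 for level with Rpl11 shRNA (6.48%) and 4 for level with Rps19 against Rpl11 shRNA (8.94%). Reversed were, in the centred pools, Psmb3 (0.27), Psmb4 (0.47), Psmc1 (0.15), Psmc2 (0.39), Psmc6 (0.47), Psmd12 (0.30), Psmd2 (0.38) and Psmd4 (0.25), and with the mean of all probe sets Psmc2 in level between the shRNA groups (0.18) and Psmd11 in the pools (-0.060). Centring shifts every pool difference upward by construction, and for the other changes the cause was not tested. The brightest member value, of Psmb7, was 0.633 of the highest signal on its array.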

Other observations

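Psme3, an activator found mostly in the nucleus, had uneven levels between replicates. Its level was 11.42, 12.52 and 12.62 in the 3 control construct gradients and 11.43, 11.52 and 12.64 in the untransduced gradients. With Rps19 shRNA it was 11.67, 11.61 and 11.61, and with Rpl11 shRNA 11.81, 11.84 and 11.99. A second probe set of Psme3 had a level difference of -1.82 with Rpl11 shRNA against the control construct, where the brighter one had -0.31. Psmd13, a lid subunit, had levels of 11.23, 10.52 and 9.80 in the 3 Rpl11 shRNA gradients, a wider range than for any of the 14 called members in that group.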
